A study of Mus musculus with 6 samples.

Results

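The 31 genes described here are mouse imprinted genes, chosen by gene name from a list and found among 55471 gene rows of an RNA-seq experiment on the embryonic telencephalon. RNA was taken from the rostral tip of the telencephalic primordium at E11.5. The 3 control samples came from Dicer F/F embryos according to the extraction protocol, although their genotype label reads WT, so whether they carried the floxed alleles rests on the protocol. The 3 Rx-Dicer samples (labelled RxCre-Dicer F/F) carried both floxed Dicer alleles together with a Cre driven by regulatory sequences of the early forebrain transcription factor Rax (Rx). The Cre line was kept on CD1 and the floxed line on C57BL/6, so the embryos are of mixed background, and embryos of either sex were used. The sources used here do not say whether each library represents 1 embryo or a pool, so the p-values below measure the spread between these samples only, which may in part be technical. In this bulk tissue, fewer cells of a type and less RNA per cell cannot be told apart.

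Imprinted genes carry methylation marks laid down in the egg or the sperm and are transcribed mainly from the maternal or the paternal copy. Most of them lie in clusters that share a control region, and many clusters pair protein-coding genes of one parental copy with long noncoding RNAs of the other. Many act on growth, placental function and metabolism, and several are most active in the developing brain. Dicer is the enzyme that cuts miRNA precursors into mature miRNAs. Some imprinted clusters are large miRNA hosts, above all the Dlk1-Dio3 domain on chromosome 12, where the maternal noncoding RNAs Meg3, Rian and Mirg carry many miRNA precursors. The counts analysed here sum both parental copies, so they give the level of each gene and not its imprint.

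Within the list, 7 genes overlapped miRNA precursors of the RefSeq annotation. Mirg held 26 mature miRNAs, Rian 6, and H19, Meg3, Mest and Usp29 2 each, all on the strand of their host. Rtl1 differed from these. This gene (ENSMUSG00000085925, GRCm38 chr12:109589193-109600330, minus strand) has 2 mature miRNAs on its own strand, but also 6 precursors with 11 mature miRNAs on the opposite strand. That strand is the one transcribed from the maternal copy, while Rtl1 itself is transcribed from the paternal copy. Each of the 11 mature sequences was complementary over its full length to the coding sequence of Rtl1, within the 5232 coding bases of a 6358-base transcript. This follows from their position opposite the exons of Rtl1 and is not a separate result. The sequences are shown because their pairing to Rtl1 is complete and not limited to a seed. The capitals mark the seed (bases 2 to 8), and the sequences run 5′ to 3′ in the order of the plus strand of GRCm38.p6, from 109590459 to 109595387 on chromosome 12.
miR-431-5p: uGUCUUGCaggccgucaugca
miR-431-3p: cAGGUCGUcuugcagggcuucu
miR-433-5p: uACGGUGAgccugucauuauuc
miR-433-3p: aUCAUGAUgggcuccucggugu
miR-127-5p: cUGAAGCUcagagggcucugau
miR-127-3p: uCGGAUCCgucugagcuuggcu
miR-434-5p: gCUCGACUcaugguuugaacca
miR-434-3p: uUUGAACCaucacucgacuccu
miR-432: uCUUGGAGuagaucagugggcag
miR-136-5p: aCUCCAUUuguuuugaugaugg
miR-136-3p: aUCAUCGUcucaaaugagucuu
All 11 seeds differed from each other. Cleavage of the Rtl1 transcript by miRNAs of this strand is known from other tissues. Mature miRNAs are too short for the libraries analysed here and were not measured in them. The study sequenced small RNAs in separate libraries, which were not used here. Whether these 11 miRNAs were lower in Rx-Dicer samples is therefore not shown.

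Libraries held 34471501 to 48373468 counts on genes. A floor set here at 3 counts, which allows for counting error only, was 0.0620 to 0.0870 CPM. Dicer1, the targeted gene, had 6355, 7070 and 6270 normalized counts in control and 4777, 7002 and 4644 in Rx-Dicer samples, in the order of the replicate numbers used throughout. DESeq2 estimated -0.26 ± 0.17 (SE) on the log2 scale, at an adjusted p of 0.567. The library labelled Rx-Dicer 2 was at the level of the controls. Without that library the change was -0.47, with an adjusted p of 8.81e-04. The count covers the whole gene, and exons outside the floxed segment still contribute to it. The summed level of 11 telencephalic markers ranged from 55162 to 70604 normalized counts over the 6 libraries. Markers of other cells were uneven over the libraries. The summed level of 6 hypothalamus and floor plate markers was 107 to 267 in control and 889 to 2523 in Rx-Dicer samples, and 1 of the 4 tested (Shh) rose. In Rx-Dicer samples most of this sum was Nkx2-1, which is also made in the ventral telencephalon, at 682, 1882 and 1307 normalized counts. Nkx2-1 had 3.66, 51.9 and 191.6 in control. Sim1 had 31.8, 17.3 and 22.5 in control and 53.2, 45.8 and 35.2 in Rx-Dicer samples. The Rx-Dicer values of 3 of the 4 tested markers (Nkx2-1, Shh and Sim1) lay all above the control values, while Rax overlapped. Foxa2 and Nkx2-2 stayed at or below 22.8 counts in all libraries. The sum of 6 macrophage markers was 1014 to 1197 in control samples and 3830, 1169 and 2419 in Rx-Dicer samples, and 2 of the 6 rose (Csf1r and Cx3cr1). Dlx1, Dlx2 and Gsx2, which mark ventral progenitors, summed to 2515, 3273 and 7675 in control and to 2178, 10302 and 1859 in Rx-Dicer samples. Of the other markers, 1 of 11 telencephalic (Six3) and 1 of 10 mesenchymal and meningeal markers (Foxd1) rose, and none of the 7 neuronal, 8 vascular, 6 erythroid, 5 ectodermal and 3 tested eye markers was called. The part of any of these differences in the values below was not tested, except where a value is given.

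The comparison of the groups asked which imprinted genes differ in level when Dicer is deleted in the early forebrain. DESeq2 tested 29 of the 31 genes, and the other two were too low. Calls required an adjusted p under 0.05 as well as a log2 fold change beyond 0.322 in either direction. Rtl1, Dlk1, Magel2, Zim1 and Rian rose in Rx-Dicer samples, which is 5 of 29, and none was called lower. Among all 17128 genes tested, 1.75% were called higher and 1.18% lower. The Rx-Dicer values of 6 imprinted genes lay all above the control values, those of 2 lay all below (Ndn and Peg13), and 21 overlapped. Over all genes tested, 8.55% had Rx-Dicer values all above the control values and 10.7% all below. The median log2 fold change of the 29 genes was 0.43, beside -0.00087 for all genes tested, and 23 of the 29 had a positive value. This median rested in large part on the library Rx-Dicer 2 and was 0.14 without it.

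The calls depended on the test. edgeR's quasi-likelihood test called none of the 29 imprinted genes, where it called 8 of 17954 genes (0.0446%) in all. An unadjusted p under 0.05 was given to 9 of the 29 imprinted genes by edgeR and to 12 by DESeq2. Over the genes DESeq2 tested, 13.3% by edgeR (2268 of 17105) and 13.1% by DESeq2 (2239 of 17128) were under that value. The lowest edgeR adjusted p among the 29 was 0.0719, for Rtl1. The called genes lay in 3 of 17 clusters.

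**Figure D1:**
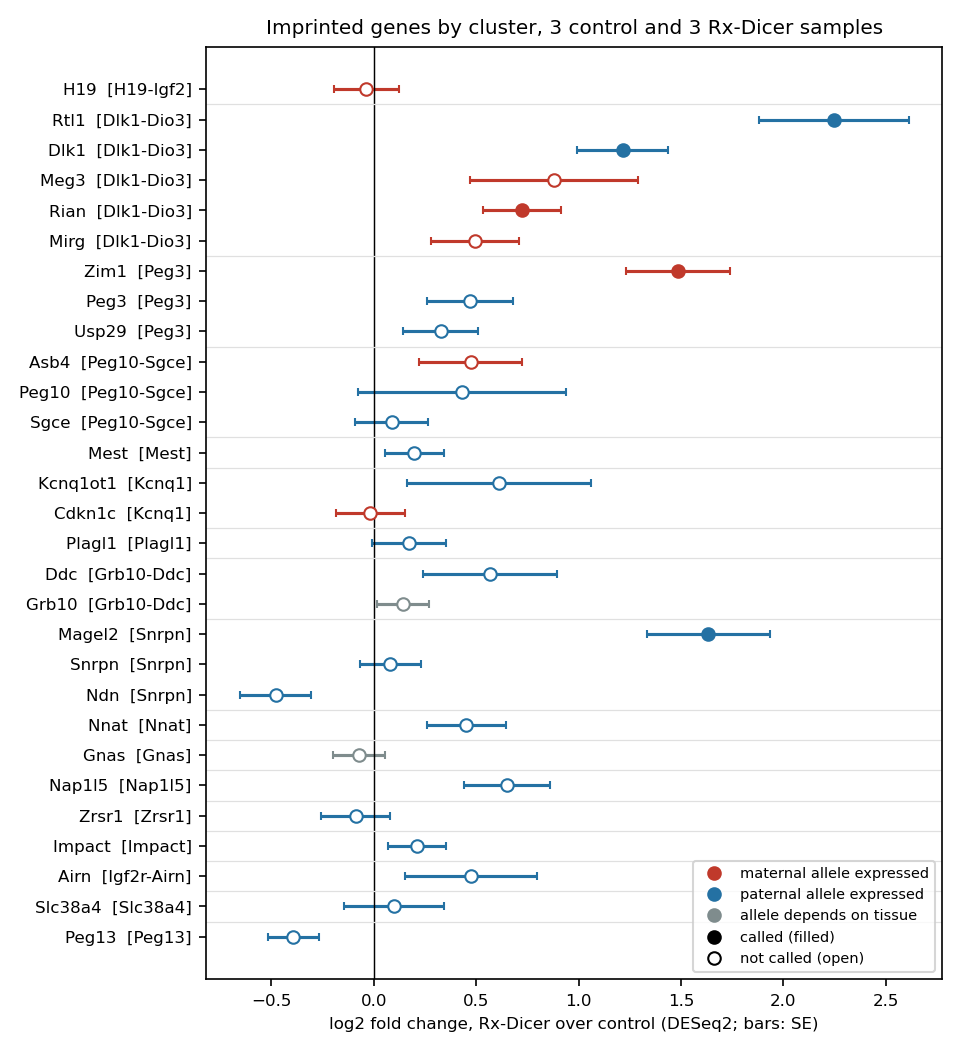
The horizontal axis gives the log2 fold change of Rx-Dicer over control samples with its SE for the 29 tested imprinted genes, grouped by cluster. Color marks the parental copy listed as expressed, and filled points mark genes called by DESeq2. The 5 filled points, Rtl1, Dlk1, Rian, Zim1 and Magel2, lie between 0.73 and 2.25, and Ndn and Peg13 lie lowest, at -0.48 and -0.39.

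The Dlk1-Dio3 domain held 3 of the 5 calls. All 5 listed genes of the domain had a positive log2 fold change, from 0.49 to 2.25 with a median of 0.88, and both paternally expressed genes were among those called.

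Dlk1 encodes a transmembrane protein of the Notch ligand family that keeps precursor cells undifferentiated in several tissues (ENSMUSG00000040856, GRCm38 chr12:109452823-109463336, plus strand). Its normalized counts were 3079, 5017 and 6455 in control and 9235, 12002 and 12570 in Rx-Dicer samples. The lowest Rx-Dicer sample stood well above the highest control. The mean was 4851 ± 1694 in control and 11269 ± 1784 in Rx-Dicer samples (SD, n = 3 each). This was a 2.32-fold rise (log2 fold change 1.22 ± 0.22, SE), at an adjusted p of 1.97e-05 by DESeq2 and 0.144 by edgeR. Dlk1 was also well above control in the library Rx-Dicer 2, in which Dicer1 was not lower.

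Rtl1, a protein derived from a retrotransposon and needed in placental vessels and muscle, showed the largest log2 fold change among the 29 tested genes. Its normalized counts were 13.4, 27.5 and 31 in control and 110.6, 108.0 and 127.4 in Rx-Dicer samples. The Rx-Dicer samples lay close together, and each had more than the 3 control samples added up. By DESeq2 Rtl1 rose 4.75-fold, or by 2.25 ± 0.37 (SE) on the log2 scale, at an adjusted p of 4.27e-07 (0.0719 by edgeR). The level remained low after the rise. Per length, as TPM (counts per exon length, scaled to the same total in each sample), it went from 0.233 ± 0.095 to 1.13 ± 0.022 (SD, n = 3 each), far below Dlk1 at 53.0 ± 19.9 in control and 124 ± 19.5 in Rx-Dicer samples.

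**Figure D2:**
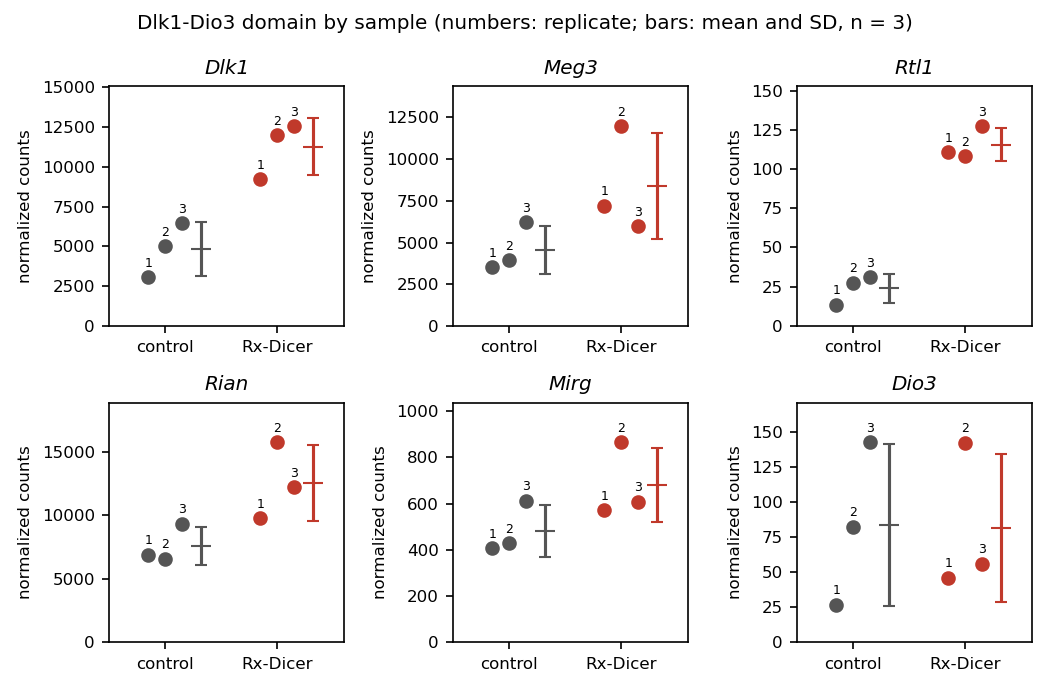
Each panel plots the normalized counts of a gene of the Dlk1-Dio3 domain in the 3 control and 3 Rx-Dicer samples, with the replicate number beside each point and the mean and SD at the side. Dlk1, Rtl1 and Rian have all Rx-Dicer values above all control values, while Meg3, Mirg and Dio3 overlap.

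Of the 3 noncoding RNAs of the maternal copy, Rian was called and Meg3 and Mirg were not. Rian, which hosts small nucleolar RNAs and miRNAs (chr12:109603940-109661716, plus strand), had 6906, 6576 and 9328 normalized counts in control and 9763, 15729 and 12217 in Rx-Dicer samples. Rx-Dicer 1 was just above the highest control. DESeq2 estimated a 1.65-fold rise (log2 fold change 0.73 ± 0.19, SE) at an adjusted p of 0.0106 (0.205 by edgeR). The call was lost when either control 1, control 2, Rx-Dicer 2 or Rx-Dicer 3 was left out, with DESeq2 adjusted p-values of 0.1005, 0.190, 0.1035 and 0.0784.

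Meg3, the first noncoding RNA of the maternal copy (chr12:109541001-109571726, plus strand), had 3510, 3948 and 6211 normalized counts in control and 7197, 11989 and 5996 in Rx-Dicer samples. Rx-Dicer 3 was below control 3, so the groups overlapped. By DESeq2 the groups differed by 0.88 ± 0.41 (SE) in log2 units, at an adjusted p of 0.304. It was called without control 3 (log2 fold change 1.17, adjusted p 0.00211) or without Rx-Dicer 3 (1.07, adjusted p 0.0211), and was lowest, at 0.54, without Rx-Dicer 2 (adjusted p 0.294). Mirg, the host of a large miRNA cluster (chr12:109729764-109749460, plus strand), had 408, 429 and 612 normalized counts in control and 572, 864 and 608 in Rx-Dicer samples. DESeq2 estimated 0.49 ± 0.22 (SE) on the log2 scale, at an adjusted p of 0.255.

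Dio3, at the far end of the domain, encodes an enzyme that inactivates thyroid hormone and is expressed mainly from the paternal copy. It was not on the list of 31 and had 26.9, 82.5 and 142.8 normalized counts in control and 46.3, 142.6 and 56.1 in Rx-Dicer samples. Its groups overlapped entirely, with a log2 difference of -0.05 ± 0.54 (SE, DESeq2 adjusted p 0.992). Its sign turned without control 3 (0.57), Rx-Dicer 1 (0.23) or Rx-Dicer 3 (0.16). The summed counts of the 5 listed genes were 13917, 15997 and 22638 in control and 26878, 40691 and 31518 in Rx-Dicer samples. Among controls, control 3 was the highest for all 5 genes, and it also had the highest sum of Dlx1, Dlx2 and Gsx2. Among Rx-Dicer samples, the library Rx-Dicer 2 was the highest for Meg3, Rian and Mirg and also for that sum, but not for Dlk1 or Rtl1. Control 3 and Rx-Dicer 2 also had the highest hypothalamus and floor plate sum of their groups, 267 and 2523.

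At the Rtl1 gene, both strands could be read apart because the libraries were directional. The rows of the 6 precursors opposite to Rtl1 (Mir431, Mir433, Mir127, Mir434, Mir432 and Mir136, which hold the sequences printed above) summed to 14.7, 19.4 and 18.8 normalized counts in control and 18.9, 46.9 and 27.6 in Rx-Dicer samples. These counts come from precursors or longer RNAs that run through them. Per kb, the opposite strand had 28.4, 37.5 and 36.4 in control and 36.6, 90.8 and 53.4 in Rx-Dicer samples, over 516 bases. The exons of Rtl1 had 2.11, 4.33 and 4.88 per kb in control and 17.4, 17.0 and 20.0 in Rx-Dicer samples. A read counts for a row when it overlaps any part of it, so rows this short gather reads from a wider stretch and their values per kb cannot be ranked against those of the long Rtl1 exons. The opposite strand in Rx-Dicer 1 was at the level of control 2, while Rtl1 in Rx-Dicer 1 was above all controls. The counts of the precursors are small, and no test was made on their sum.

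**Figure D3:**
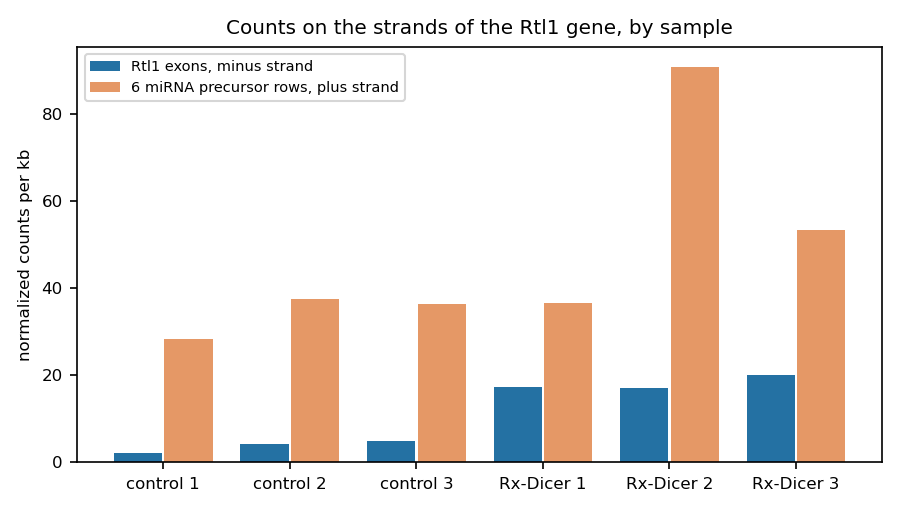
Bars give normalized counts per kb for each of the 6 samples, for the exons of Rtl1 on the minus strand and for the 6 miRNA precursor rows on the plus strand. The Rtl1 bars are 2.11 to 4.88 in control and 17.0 to 20.0 in Rx-Dicer samples, and the precursor bars are 28.4 to 37.5 and 36.6 to 90.8. Heights compare samples within a color, not the colors with each other.

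In the Peg3 domain on chromosome 7, a zinc finger gene of the maternal copy rose and its paternal neighbors were not called. Zim1 (ENSMUSG00000002266, GRCm38 chr7:6671269-6696450, minus strand) had 92.8, 73.3 and 116.5 normalized counts in control and 307.9, 222.1 and 262.4 in Rx-Dicer samples. The groups were well apart, and Rx-Dicer 2 was here the lowest of its group. By DESeq2 Zim1 rose 2.80-fold, or by 1.49 ± 0.25 (SE) on the log2 scale, at an adjusted p of 1.70e-06 (0.0827 by edgeR). Its level per length remained low, at 0.718 ± 0.187 TPM in control and 2.03 ± 0.355 TPM in Rx-Dicer samples (SD, n = 3 each).

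Peg3 encodes a zinc finger protein that acts in maternal behavior and cell stress, and per length it is far more abundant than Zim1, at 42.8 ± 12.1 TPM in control samples (SD, n = 3). It had 7948, 7891 and 11888 normalized counts in control and 10863, 17052 and 10539 in Rx-Dicer samples. The groups overlapped, since control 3 exceeded both Rx-Dicer 1 and Rx-Dicer 3, and the log2 difference was 0.47 ± 0.21 (SE, DESeq2 adjusted p 0.267). Without Rx-Dicer 2 it was 0.22. Usp29, a member of the ubiquitin-specific protease family that starts beside Peg3 on the other strand, had 715 to 879 normalized counts in control and 834 to 1281 in Rx-Dicer samples, with a log2 difference of 0.33 ± 0.18 (SE, DESeq2 adjusted p 0.459).

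In the Snrpn domain, which corresponds to the Prader-Willi region, 2 neighboring genes of the MAGE family had log2 fold changes of opposite sign, and only that of Magel2 was called. Magel2, which assists ubiquitin ligases in protein trafficking and is best known from the hypothalamus (ENSMUSG00000056972, GRCm38 chr7:62377010-62381640, plus strand), had 240.6, 261.7 and 233.0 normalized counts in control samples. The Rx-Dicer samples had 1196.4, 413.6 and 672.1. The controls were tight and the Rx-Dicer samples spread widely, but all were above the controls. DESeq2 estimated a 3.11-fold rise (log2 fold change 1.63 ± 0.30, SE) at an adjusted p of 1.69e-05 (0.151 by edgeR). The sum of the 6 hypothalamus and floor plate markers was higher in all Rx-Dicer samples too, at 889, 2523 and 1599. It was highest in Rx-Dicer 2, where Magel2 was lowest of its group. The macrophage sum of 3830, 1169 and 2419 had the same order as Magel2 across the Rx-Dicer samples. So did the sum of eye markers, at 880, 216 and 742, and that of surface ectoderm markers, at 1970, 1123 and 1389. In Rx-Dicer 2 the macrophage sum was within the range of the controls, 1014 to 1197, and Magel2 was still above them. The part of any of these cell types in the rise of Magel2 was not tested.

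Ndn, which encodes the growth suppressor necdin of postmitotic neurons (chr7:62346569-62350262, plus strand), had 7494, 6398 and 5973 normalized counts in control and 5662, 5008 and 3573 in Rx-Dicer samples. All Rx-Dicer values were below the controls. The log2 fold change was -0.48 ± 0.17 (SE), a value 1.39-fold lower that did not pass the DESeq2 test (adjusted p 0.122). It was called without Rx-Dicer 1, at -0.63 with an adjusted p of 0.0256, and in 2 of 10 DESeq2 alternatives in all. Without control 1 the adjusted p was 0.394. The summed level of 7 early neuronal markers was 71189, 54846 and 55531 in control and 64442, 47297 and 44940 in Rx-Dicer samples. Within the Rx-Dicer samples this was the order of Ndn, but within the controls it was not. The mesenchymal and meningeal sum also had the order of Ndn in the Rx-Dicer samples, at 73524, 59152 and 58751. None of the 7 neuronal markers was called, but 6 of the 7 had a negative log2 fold change. Elavl3 had all Rx-Dicer values below the controls, as 10.7% of all genes tested did. The part of neurons or of mesenchyme in the Ndn values was not tested. Snrpn, which encodes a spliceosomal protein, had 851, 780 and 882 normalized counts in control and 879, 999 and 779 in Rx-Dicer samples, with a log2 fold change of 0.08 (DESeq2 adjusted p 0.929, and -0.011 without Rx-Dicer 2). Its count is uncertain, because 27.3% of its exon bases are shared with another gene on the same strand and reads there were not counted.

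**Figure D4:**
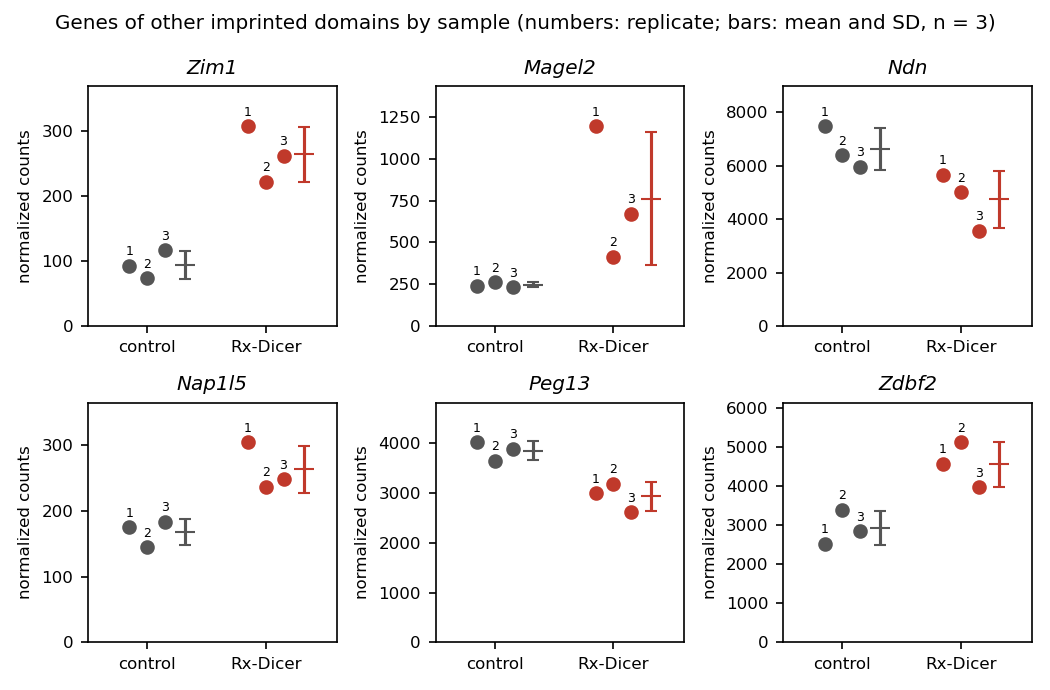
Each panel plots the normalized counts of a gene in the 3 control and 3 Rx-Dicer samples, with the replicate number beside each point and the mean and SD at the side. In all 6 genes the groups do not overlap. Zim1, Magel2, Nap1l5 and Zdbf2 are higher and Ndn and Peg13 lower in Rx-Dicer samples, and of these Zim1, Magel2 and Zdbf2 were called by DESeq2.

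Nap1l5 and Peg13 had groups that did not overlap, without a call. Nap1l5, a small gene related to nucleosome assembly proteins, had 174.7, 144.6 and 183.2 normalized counts in control and 303.6, 236.4 and 248.1 in Rx-Dicer samples. The DESeq2 estimate of 0.65 ± 0.21 (SE) in log2 units, or 1.57-fold, had an adjusted p of 0.064. Nap1l5 was called without Rx-Dicer 2 (0.73, adjusted p 0.0452), which was 1 of 10 DESeq2 alternatives. Without control 2 the adjusted p was 0.312. Peg13, a paternally expressed noncoding RNA (ENSMUSG00000106847, chr15:72805600-72810324, minus strand), had 4012, 3648 and 3885 normalized counts in control and 2996, 3187 and 2614 in Rx-Dicer samples. The controls varied little, with a coefficient of variation of 4.80%, the lowest of the 31 genes. The log2 fold change of Peg13 was -0.39 ± 0.12 (SE), a value 1.31-fold lower, with a DESeq2 adjusted p of 0.0516 and an edgeR adjusted p of 0.195. Peg13 passed the test without Rx-Dicer 2 (-0.45, adjusted p 0.0087) and also when genes with low counts were removed first (adjusted p 0.0303). These were 2 of 10 DESeq2 alternatives, and without control 3 the adjusted p was 0.168.

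The growth-regulating genes at the top of the expression range were not called. Nnat, a small membrane protein of the endoplasmic reticulum in neural cells, was the most abundant of the 31 per length, at 1812 ± 470 TPM in control samples (SD, n = 3). It was followed by Mest, a hydrolase-like protein of the embryonic mesoderm and brain, at 1073 ± 151 TPM. Then came H19, a noncoding RNA of the maternal copy, at 1033 ± 254 TPM. Mest and H19 did not differ beyond their spread. Cdkn1c, an inhibitor of cyclin-dependent kinases, stood at 431 ± 96.98 TPM, Grb10, which dampens insulin and IGF receptor signaling, at 303 ± 33.1 TPM, and Gnas, the gene of the stimulatory G protein subunit, at 270 ± 27.9 TPM. Grb10 and Gnas were also within their spread of each other.

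Among these abundant genes, Nnat had 70794, 43037 and 48439 normalized counts in control and 86901, 61198 and 73845 in Rx-Dicer samples. The groups overlapped through control 1, and the log2 difference was 0.45 ± 0.19 (SE, DESeq2 adjusted p 0.229). Without control 1 it was 0.69, with an adjusted p of 0.0050, and without control 2 it was 0.31, with an adjusted p of 0.779. H19 had 35324, 37069 and 51166 normalized counts in control and 38541, 37830 and 44132 in Rx-Dicer samples, a log2 fold change of -0.04 ± 0.16 (SE, DESeq2 adjusted p 0.977). Mest, Cdkn1c, Grb10 and Gnas had log2 fold changes of 0.20, -0.02, 0.14 and -0.07, and their DESeq2 adjusted p-values were 0.652 to 0.992. The values of H19, Cdkn1c and Gnas turned sign with single libraries left out. H19 was at 0.15 without control 3 and at 0.0099 without Rx-Dicer 2, Cdkn1c at 0.13 without control 3 and at 0.089 without Rx-Dicer 1, and Gnas at 0.025 without control 1.

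Igf2, the paternally expressed growth factor that shares its control region with H19, had 610, 548 and 1093 normalized counts in control and 881, 577 and 523 in Rx-Dicer samples. The groups overlapped, and the DESeq2 estimate was -0.19 ± 0.27 (SE) on the log2 scale, at an adjusted p of 0.894. It was 0.19 without control 3. The summed level of 10 mesenchymal and meningeal markers was also highest in control 3 among the controls and in Rx-Dicer 1 among the Rx-Dicer samples, as Igf2 was, with 54967, 37430 and 81824 in control and 73524, 59152 and 58751 in Rx-Dicer samples. Its part in the Igf2 values was not tested.

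On chromosome 6, the retrotransposon-derived gene Peg10 had 7196, 7382 and 12756 normalized counts in control and 8625, 19431 and 8850 in Rx-Dicer samples. Its value rested on Rx-Dicer 2. By DESeq2 the groups differed by 0.43 ± 0.51 (SE) in log2 units, at an adjusted p of 0.852, and by -0.06 without that library. Asb4, an adaptor of a ubiquitin ligase, had the same highest library, with 729 to 1215 normalized counts in control and 1111, 2019 and 1048 in Rx-Dicer samples (log2 fold change 0.47 ± 0.25, SE, DESeq2 adjusted p 0.421), and its log2 fold change was 0.11 without Rx-Dicer 2. Sgce, a sarcoglycan whose start lies next to that of Peg10, had a log2 fold change of 0.09, which became -0.043 without control 2 and -0.026 without Rx-Dicer 3.

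In the Kcnq1 domain, Kcnq1ot1, the noncoding RNA that silences its neighbors on the paternal copy, had 1901, 1022 and 1326 normalized counts in control and 1388, 3220 and 1884 in Rx-Dicer samples. Again Rx-Dicer 2 stood apart, and the log2 difference was 0.61 ± 0.45 (SE, DESeq2 adjusted p 0.656). Without that library it was 0.21. Phlda2 and Ascl2, which act mainly in the placenta, were close to absent, with 1.0 to 7.5 and 1.2 to 14.3 normalized counts over the 6 libraries, and were not tested.

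The remaining genes overlapped between the groups. Ddc, the decarboxylase that makes dopamine and serotonin, had 69.6, 132.4 and 174.7 normalized counts in control and 176.7, 236.4 and 148.3 in Rx-Dicer samples, with a log2 difference of 0.57 ± 0.33 (SE, DESeq2 adjusted p 0.483). Airn, the noncoding RNA that silences Igf2r in cis, had 61.1, 61.1 and 97.7 in control and 96.1, 127.4 and 83.7 in Rx-Dicer samples. DESeq2 estimated 0.48 ± 0.32 (SE) on the log2 scale, at an adjusted p of 0.607. Plagl1 (a zinc finger regulator of other imprinted genes), Impact (an inhibitor of a translation stress kinase), Slc38a4 (an amino acid transporter) and Zrsr1 (a splicing factor) had log2 fold changes of 0.17, 0.21, 0.10 and -0.09, with DESeq2 adjusted p-values of 0.594 to 0.952. Slc38a4 turned to -0.14 without control 2 and to -0.044 without Rx-Dicer 2, and Zrsr1 turned to 0.038 without Rx-Dicer 2.

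The genes were also grouped by the parental copy listed as expressed, which was not measured here and may not hold in this tissue. Of 7 tested genes listed as maternal, 2 were called higher (Rian and Zim1), with a median log2 fold change of 0.49. Of 20 genes listed as paternal 3 were called higher (Dlk1, Rtl1 and Magel2), with a median of 0.38. Neither of the 2 genes listed with a copy that depends on the tissue (Grb10 and Gnas) was called. Of 7 noncoding RNAs 1 was called, and of 22 tested protein-coding genes 4 were called. Over all genes tested, DESeq2 called 1.75% higher and 1.18% lower. Both groupings divide the same 5 DESeq2 calls, none of which edgeR made. These groups are small, and the difference between them was not tested.

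The libraries contributed unequally. Rx-Dicer 2 had the highest value of the 6 libraries for 14 of the 29 tested genes (48.3%), where it was the highest for 18.7% of all genes tested. Control 2 was the highest for none of the 29. Measured against the mean of the controls, the median log2 difference of the 29 genes was 0.141 in Rx-Dicer 1, 0.502 in Rx-Dicer 2 and 0.217 in Rx-Dicer 3. The genes highest in Rx-Dicer 2 were Meg3, Rian, Mirg, Peg3, Usp29, Peg10, Asb4, Mest, Kcnq1ot1, Grb10, Ddc, Snrpn, Impact and Airn. Among the 5 called genes only Rian was highest there. Rx-Dicer 2 was also the library with the highest sum of Dlx1, Dlx2 and Gsx2 and with Dicer1 at the control level. The same library had the highest sum of hypothalamus and floor plate markers, at 2523 against 889 and 1599 in its group. It also had the largest share of tallied reads that fell on no annotated feature of their strand, 10.7% against 6.79 to 8.32% in the other libraries, and the smallest share of reads that align to several places, 5.62% against 6.10 to 6.65%. The part of any of these in this pattern was not tested.

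**Figure D5:**
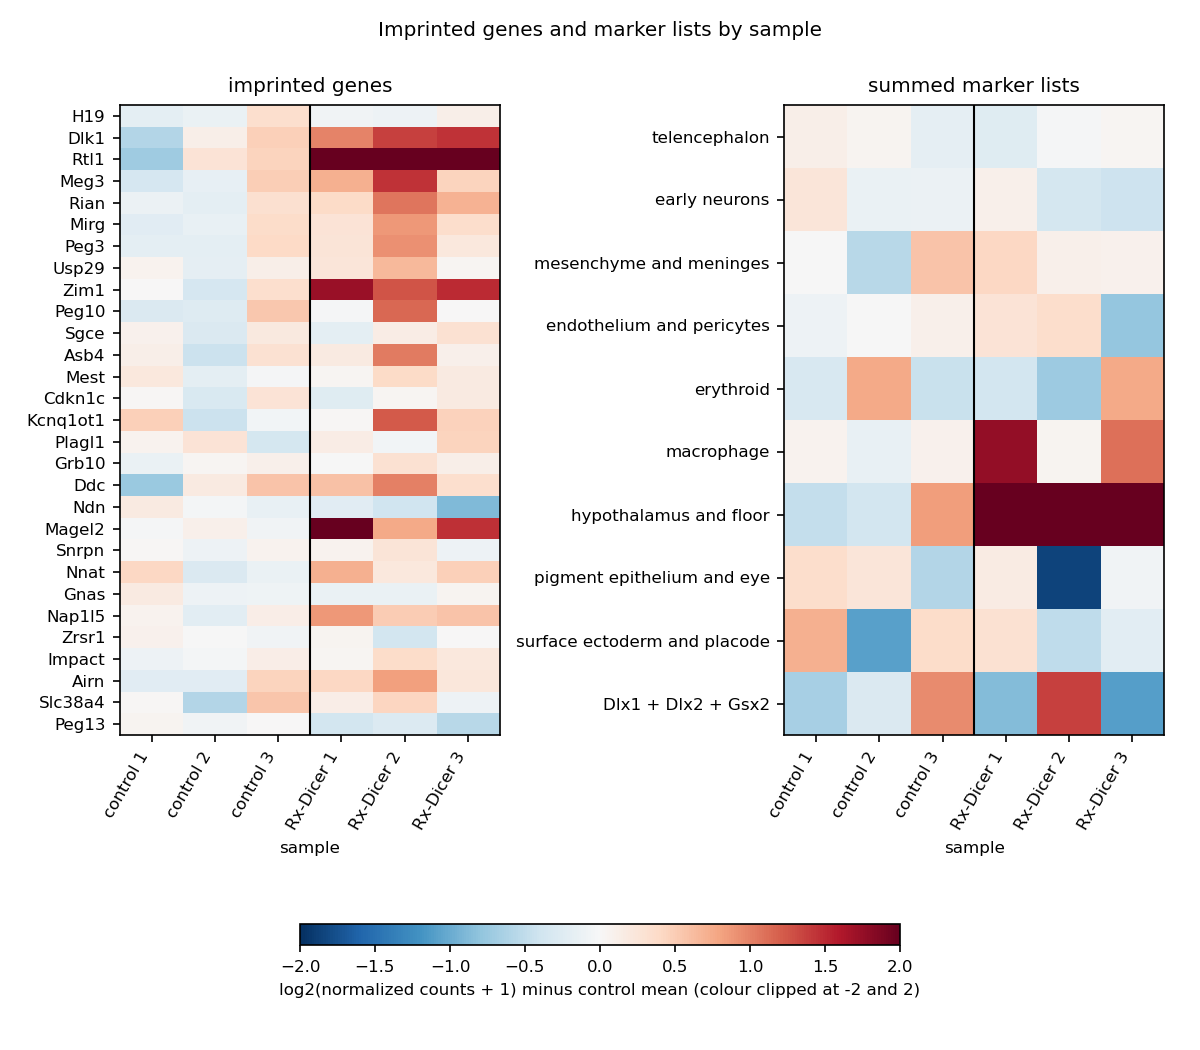
Colors give log2(normalized counts + 1) minus the control mean in the 6 samples, for the 29 tested imprinted genes on the left and for summed marker lists on the right, clipped at -2 and 2. Rtl1, Dlk1, Zim1 and Magel2 are raised in all 3 Rx-Dicer samples, while Meg3, Peg10, Asb4 and Kcnq1ot1 are raised most in Rx-Dicer 2. That sample has the highest ventral sum, 10302, and the highest hypothalamus and floor plate sum, 2523.

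Sequence matches to let-7 were looked up because the study centers on this miRNA family. The mature let-7a-5p is shown with its seed in capitals.
let-7a-5p: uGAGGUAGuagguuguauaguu
The DNA word that pairs with this seed, CTACCTC, was searched on the transcript strand of annotated 3′ UTRs. It was found in 3 of 22 tested imprinted genes with a 3′ UTR (Rtl1, Peg3 and Zim1), or 13.6%, and in 1921 of 14074 tested genes, also 13.6%. Rtl1 and Zim1 were called higher and Peg3 was not. Dlk1 and Magel2, both called, had no such word in the annotated 3′ UTR.

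A second list held 52 other imprinted genes, of which 39 were tested, with a median log2 fold change of 0.18. Zdbf2 and Igf2r rose, which is 2 of 39, and none was called lower. Among all genes tested by DESeq2, 1.75% were called higher and 1.18% lower. edgeR called none of this list. An unadjusted p under 0.05 was given to 13 of 43 by edgeR and to 11 of 39 by DESeq2. The shares over the genes DESeq2 tested were 13.3% by edgeR and 13.1% by DESeq2. The 43 include genes that DESeq2 did not test, so the edgeR shares are not over the same set of genes. Zdbf2, a paternally expressed zinc finger gene that acts on growth through the hypothalamus, had 2531, 3395 and 2852 normalized counts in control and 4581, 5122 and 3983 in Rx-Dicer samples. DESeq2 estimated a 1.56-fold rise (log2 fold change 0.64 ± 0.15, SE) at an adjusted p of 0.00297 (0.140 by edgeR). Igf2r, the receptor that clears IGF2 and is the target of Airn, had 6482, 6950 and 6813 normalized counts in control and 9590, 8523 and 8338 in Rx-Dicer samples. By DESeq2 Igf2r rose 1.31-fold, or by 0.39 ± 0.11 (SE) on the log2 scale, at an adjusted p of 0.0293 (0.149 by edgeR). This call was lost without control 1, control 2 or control 3 (DESeq2 adjusted p 0.0597, 0.0618 and 0.0744). Without Rx-Dicer 1 the log2 change of 0.319 was just short of the 0.322 required. The number of calls in this list was 4 without control 1 and 1 without control 3 or without Rx-Dicer 1.

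Genes that set or keep imprints formed another list of 20, which includes DNA methyltransferases and zinc finger proteins that bind imprinted control regions. None of the 18 tested was called by DESeq2 or by edgeR. Over all genes, DESeq2 called 1.75% higher and 1.18% lower, and edgeR called 0.0446%. An unadjusted p under 0.05 was given to 1 of the 18 by each test, or 5.56%. Over the genes DESeq2 tested, the share was 13.1% by DESeq2 and 13.3% by edgeR. Their log2 fold changes ran from -0.16 to 0.35 around a median of 0.063. The largest was that of Dnmt3b, a de novo DNA methyltransferase, at 0.35 ± 0.14 (SE) with a DESeq2 adjusted p of 0.165.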

How the data were processed

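Directional RNA-seq libraries of 3 control and 3 Rx-Dicer samples were analysed. The authors deposited raw read counts per gene. Per their methods, reads were trimmed with Trim Galore (0.6.5), aligned to GRCm38.p6 with HISAT2 and counted with HTSeq (0.12.4) in union mode on the reverse strand over Ensembl genes. Reads that overlap several genes or align to several places were not counted for any gene. Rows that name no gene held 24.9 to 31.04% of the tallied reads and were left out. Each sample had 2 files, which were summed as repeat runs (chi-square per degree of freedom 1.11 to 1.47 between the files of a sample). Positions and exon lengths came from GENCODE M21 (GRCm38), in which 55230 of 55471 gene identifiers were found, and miRNA sequences came from RefSeq (GRCm38.p6).

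For the comparison of the groups, DESeq2 (1.42.0, in R 4.3.3), which the study also names, was run on the whole table as a Wald test without covariates or prior filter. Size factors were medians of ratios, and fold changes were not shrunken. p-values were adjusted by Benjamini-Hochberg with independent filtering over all 17128 genes tested. Normalized counts are counts divided by the size factor. TPM values were computed here from counts and exon lengths. Alternatives were TMM and total-count scaling, removal of genes without 10 counts in at least 3 samples, edgeR's quasi-likelihood test (edgeR 4.0.16), the replicate number as a block and each sample left out in turn. The fits were tested on simulated data. The genes described and the gene and marker lists were chosen with earlier results of these data known. Genes named were all 31 of the list, Dicer1, the called genes of the other imprinted and imprint maintenance lists, Igf2, Igf2r and Dio3, and marker lists by their sums. Dnmt3b and the single markers were named after their values were seen. Of the 52 other imprinted genes, 51 were matched by name. Sums and counts of telencephalic markers include 1 gene whose own values are not reported here.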

Additional observations from a re-analysis of the deposited data

How the results depend on the processing

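With 3 samples per group, calls near the threshold were unstable. edgeR's quasi-likelihood test left 0 of the 5 listed genes called higher and 0 of the 2 other imprinted genes. Dlk1, Rtl1, Zim1, Magel2 and Zdbf2 were called in 10 of 10 DESeq2 alternatives, Rian in 6 and Igf2r in 5. Of genes without a call in the main fit, Peg13, Ndn, Meg3 and Nnat were called in 2 of 10 and Nap1l5 in 1. With each sample left out in turn, 4 to 6 listed genes were called higher and 0 to 1 lower, 1 to 4 other imprinted genes and 0 imprint maintenance genes were called, the median log2 fold change of the listed genes was 0.14 to 0.45, and that of Dicer1 was -0.47 to -0.16. Removing genes with low counts first gave 1 listed gene called lower (Peg13).

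Replicate numbers did not pair the samples (correlations of same-numbered deviations 0.177, 0.0252 and -0.139). With the replicate number as a block, 6 listed genes were called higher (Nnat added) and 1 lower (Ndn, adjusted p 0.0331), and over all genes 227 were called higher and 87 lower, against 300 and 202 without it. Igf2r was not called with the block (adjusted p 0.128). Small values turned sign with the block for Phlda2 (0.11) and Dio3 (0.078), and with samples left out for H19 (-0.14 to 0.15), Peg10 (-0.056 to 0.76), Sgce (-0.043 to 0.22), Cdkn1c (-0.15 to 0.13), Phlda2 (-0.61 to 0.49), Snrpn (-0.011 to 0.16), Gnas (-0.14 to 0.025), Zrsr1 (-0.17 to 0.038), Slc38a4 (-0.14 to 0.42), Igf2 (-0.45 to 0.19) and Dio3 (-0.72 to 0.57). What caused these shifts was not tested. Other scalings moved the median of all genes by less than 0.02 and changed no call among the listed genes.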

Other observations

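Peg13 lies in an imprinted domain on chromosome 15, and its neighbors were looked up after their values were seen. Ago2, which encodes the Argonaute protein that carries mature miRNAs to their targets, had 6861, 10167 and 9204 normalized counts in control and 11965, 12344 and 11376 in Rx-Dicer samples. All Rx-Dicer values were above the controls, and the log2 fold change of 0.44 ± 0.15 (SE) did not pass the DESeq2 test (adjusted p 0.0914). Chrac1, a chromatin accessibility factor subunit, had 1185, 1300 and 1336 normalized counts in control and 1138, 915 and 1092 in Rx-Dicer samples, with a log2 difference of -0.28 ± 0.14 (SE, DESeq2 adjusted p 0.365). Trappc9, the gene in which Peg13 lies, overlapped between the groups, at 1274, 1312 and 1319 in control and 1300, 1230 and 1110 in Rx-Dicer samples.

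Calcr, the calcitonin receptor gene of the Peg10 domain, was also named after its values were seen. It had 4.9, 5.1 and 2.8 normalized counts in control and 12.9, 27.5 and 19.01 in Rx-Dicer samples, and it was too low to be tested by DESeq2. Klf14, a transcription factor gene near Mest, had 12.2, 13.2 and 9.4 normalized counts in control and 37.7, 19.4 and 46.6 in Rx-Dicer samples, with a log2 difference of 1.58 ± 0.58 (SE, DESeq2 adjusted p 0.122).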
